A study of Mus musculus with 2 samples.

Results

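The Hoxb, Hoxc and Hoxd genes were placed on the chromatin loops of a mouse blood progenitor line. The 30 members were listed by name: 10 Hoxb genes on chromosome 11, 9 Hoxc genes and Smug1 on chromosome 15, and 9 Hoxd genes and Evx2 on chromosome 2. All 30 were found among the 21517 protein-coding genes that RefSeq places on the autosomes and X of GRCm38.p6, the assembly named mm10. Hi-C, which counts ligation products of DNA stretches that lie close together in the nucleus, had been run on 2 samples of HPC5, a haematopoietic progenitor line from mouse bone marrow, with both Etv6 alleles wild-type (Etv6+/+). There was 1 group with replicates 1 and 2 and no mutant, treated or control sample. The labels name no separate cultures, so a difference between the replicates may be technical. All values come from 1 cell line. The lists hold no expression values, and the identity of the cells was not checked.

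Hox genes encode homeodomain transcription factors that set position along the body axis. They lie in clusters in which the order along the chromosome follows the order of expression from head to tail: genes with low numbers (anterior) sit at one end and genes with high numbers (posterior) at the other. Genes of different clusters with the same number are paralogues. In blood, Hoxb4 is known for its effect on stem cell self-renewal. In the developing limb and gut, the Hoxd genes are known to contact gene-poor landscapes with enhancers on either side of the cluster. Evx2 is a homeobox gene next to Hoxd13, and Smug1 encodes a uracil-DNA glycosylase of base excision repair beyond Hoxc4. In all 3 clusters the posterior genes lay on the left (lower coordinate) and the anterior genes on the right.

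A loop is listed by its anchors, the 5, 10 or 25 kb stretches that it joins, and by a whole number n that the files do not define. For each replicate there is a shorter list (high setting) and a longer one (medium setting, used unless stated), which held every loop of the shorter one. The loops in the longer list alone were those on 25 kb anchors, 1074 in replicate 1 and 2375 in replicate 2. The list of replicate 1 held 1276 loops and that of replicate 2 held 5729, a ratio of 4.49, and the high-setting lists held 202 and 3354. Domains numbered 3 and 339. Read totals are not part of the lists, so the depth is unknown. A gene was counted at an anchor where either of its ends lay inside it. No test was run on the members, whose counts stand beside the same counts over all protein-coding genes.

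Of the 30 genes, 16 had an end in an anchor of either replicate, or 53.3% (95% Wilson interval 36.1 to 69.8%), against 22.5% of all protein-coding genes. The interval treats neighbouring genes as independent, which they are not: the 16 genes lay in 8 distinct anchors, or 6 stretches once overlapping anchors were joined. The 8 anchors held ends of 1 to 4 protein-coding genes. The 25 kb anchors at Hoxb3 to Hoxb6 and at Hoxd3 to Hoxd9 held ends of 4 genes each, and 1.12% of all 25 kb anchors with a gene end held at least 4, with a median of 1. The anchors at Smug1 (25 kb) and at Hoxd3 alone (10 kb) held 1 gene each. Among the protein-coding genes with as many neighbours as the members (12 to 29 within 500 kb), 23.4% were at an anchor. That range includes the median of all protein-coding genes, 17. It does not match the closer spacing of the members, of which up to 4 shared an anchor. By cluster the counts were 4 of 10 in Hoxb, 6 of 10 in Hoxc with Smug1, and 6 of 10 in Hoxd with Evx2. For comparison, 6 of 11 genes of the Hoxa cluster, not described further here, were at an anchor. The spread between these counts was not tested.

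The clusters differed more in which replicate held their loops. In replicate 1, 8 of the 30 genes were at an anchor (26.7%, against 6.67% of all protein-coding genes): 4 in Hoxb, 4 in Hoxc and 0 in Hoxd. In replicate 2 there were 11 (36.7%, against 19.8%): 2 in Hoxb, 3 in Hoxc and 6 in Hoxd. Only Hoxb5, Hoxb6 and Hoxc6 were at an anchor in both replicates (3 of 30, or 10%, against 3.96% of all protein-coding genes). Replicate 1 alone held Hoxb3, Hoxb4, Hoxc8, Hoxc9 and Smug1 (16.7%, against 2.71%). Replicate 2 alone held 8 genes (26.7%, against 15.9%), which were Hoxc4, Hoxc5, Evx2 and the 5 Hoxd genes. The part of the 4.49-fold difference in list length in these counts was not tested. Under the high setting 6 genes remained (20%, against 9.52% of all protein-coding genes), which were Hoxb5, Hoxb6, Hoxc4, Hoxc5, Hoxc6 and Hoxd3. All 6 were in replicate 2 (9.21% of all protein-coding genes), and replicate 1 had 0 (0.758%). The loops found in both replicates held 8 of the 30 genes at their anchors (26.7%, against 5.82%). These were the same 8 genes that were at an anchor in replicate 1, since both of its loops there had a partner in replicate 2.

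**Figure D1:**
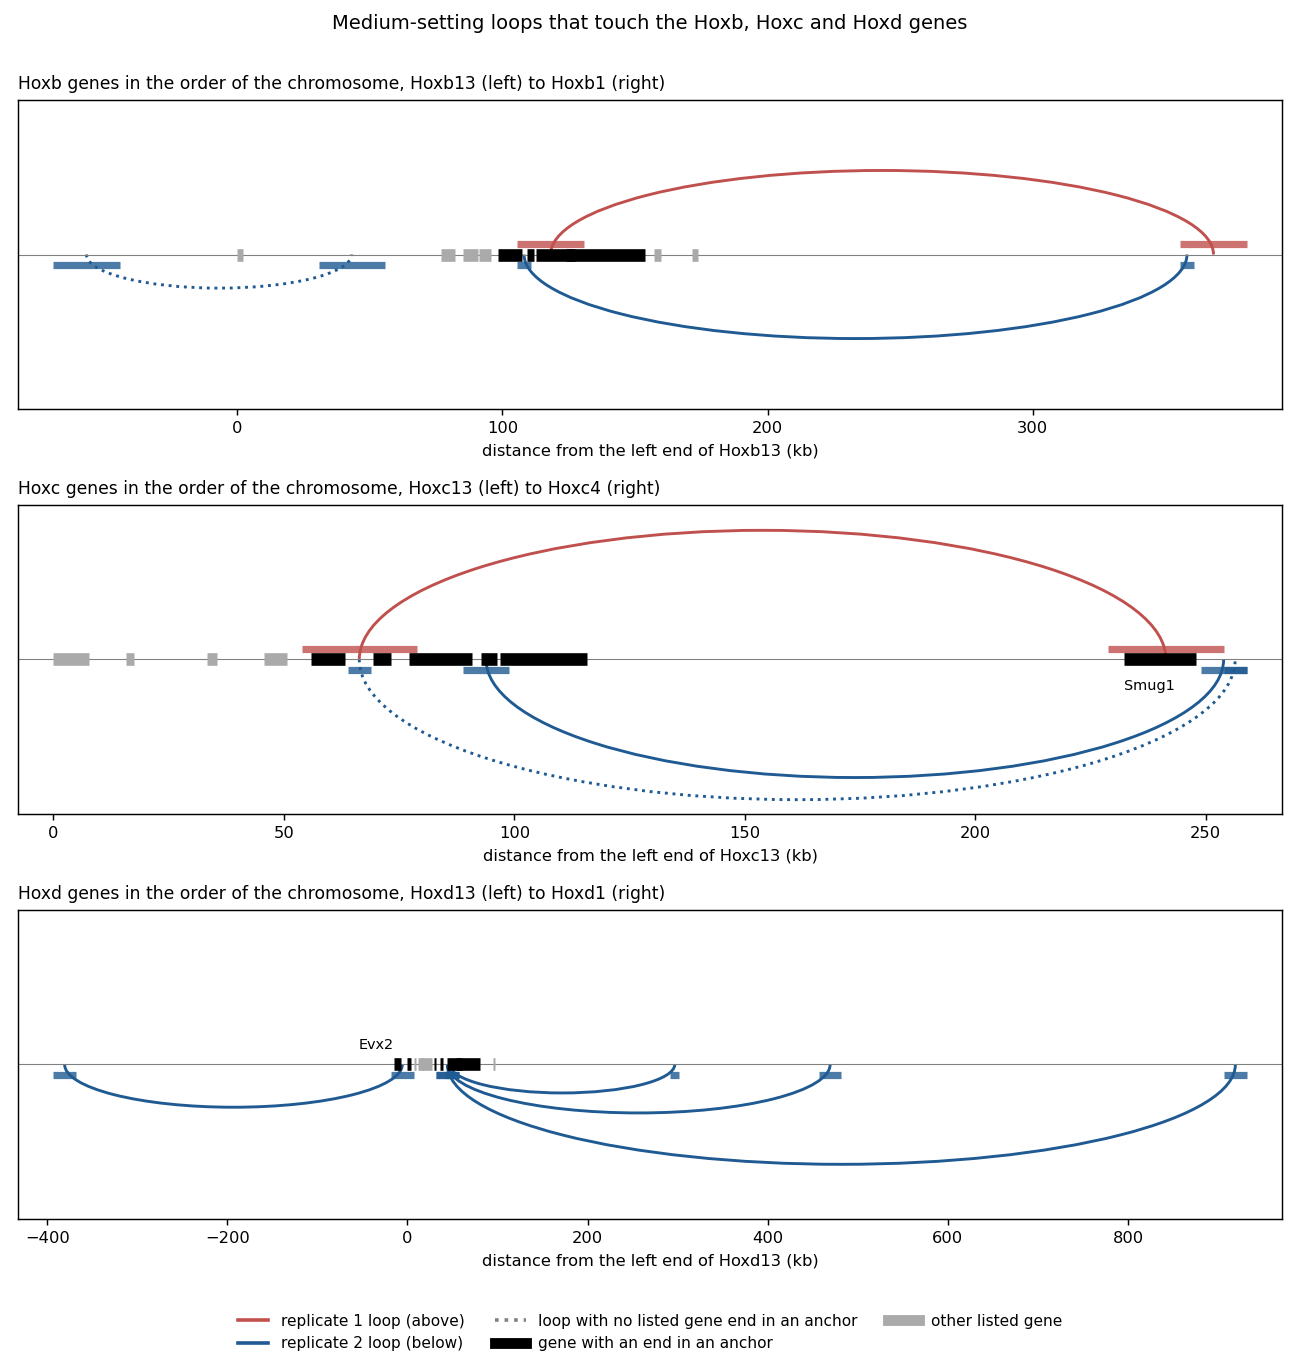
Map of the 10 medium-setting loops that touch the listed genes, with arcs between anchor midpoints, replicate 1 above and replicate 2 below the line, bars for the anchors, and the distance in kb from the left end of the gene numbered 13 of each cluster. Of the 10 loops, with those found in both replicates counted in each, 8 run to the right, past the anterior genes. The Hoxd panel has arcs of replicate 2 alone.

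There were 8 loops with a listed gene end in an anchor, 2 in replicate 1 and 6 in replicate 2, and 2 more in replicate 2 with an anchor inside a cluster but no gene end in it. All 10 left their cluster. No loop of either replicate joined 2 places within a cluster or spanned a whole cluster, and the same held for Hoxa. Over all chromosomes, 3781, 2539 and 1551 loops of the medium lists were shorter than the Hoxb, Hoxc and Hoxd clusters (174, 116 and 96.9 kb). How often other stretches of these lengths hold or lie under a loop was not counted, so the absence is not set against a background. Of the 10 loops, with those found in both replicates counted in each, 8 ran to the right past the anterior end. The exceptions were 1 loop at Evx2 and Hoxd13 and 1 over Hoxb13, both to the left.

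Hoxb had 1 loop found in both replicates, from the middle of the cluster into the body of Skap1, a gene of a T-cell adaptor protein. In replicate 1 the 25 kb anchor chr11:96300001-96324999 held ends of Hoxb6, Hoxb5, Hoxb3 and Hoxb4 and was joined over 250 kb to chr11:96550001-96574999 (n = 30). In replicate 2 the 5 kb anchor chr11:96300001-96304999 held ends of Hoxb6 and Hoxb5 and was joined over 250 kb to chr11:96550001-96554999 (n = 14). The midpoints of both anchors lay 10 kb apart between the replicates, within the 20 kb allowed for a match. The narrower replicate 2 anchor left Hoxb3 2.1 kb and Hoxb4 13.3 kb outside. Both partner anchors lay whole inside Skap1 (chr11:96464570-96759622) and held no gene end. The anterior genes Hoxb2 and Hoxb1 lay under this loop in both replicates and at no anchor, 26.6 and 40.7 kb from the nearest one.

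The posterior Hoxb genes took no part in that loop. Hoxb7, Hoxb8 and Hoxb9 were at no anchor and under no loop, 9.84, 14.7 and 21.3 kb from the nearest anchor. Hoxb13, which stands apart from the rest of its cluster, lay alone under a 100 kb loop of replicate 2 from chr11:96125001-96149999, inside Ttll6, a gene of the tubulin ligase family, to chr11:96225001-96249999 (n = 71). Its own nearest anchor was 28.4 kb away. Replicate 1 listed no such loop, and its nearest anchor to Hoxb13 was 103 kb away.

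Hoxc was joined to Smug1 or the stretch just beyond it, 126 to 141 kb past the right end of Hoxc4. In replicate 1 the anchor chr15:102975001-102999999 held ends of Hoxc9, Hoxc8 and Hoxc6 and was joined over 175 kb to chr15:103150001-103174999, which held both ends of Smug1 (n = 33). This was the only loop with listed genes at both anchors. In replicate 2 a 190 kb loop joined chr15:102985001-102989999 to chr15:103175001-103179999 (n = 15). Its left anchor lay between Hoxc9 and Hoxc8, 557 and 540 bases from their ends, and held no gene end. It counted as the partner of the replicate 1 loop, with left midpoints 0 kb and right midpoints 15 kb apart, but the right anchors of the pair did not overlap.

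A second replicate 2 loop of 160 kb started farther right, at chr15:103010001-103019999, with ends of Hoxc6, Hoxc5 and Hoxc4, and ended at chr15:103170001-103179999 (n = 25). It had no partner in replicate 1. Smug1 ended 1.06 kb short of the nearer replicate 2 anchor, so it was at an anchor in replicate 1 and under 2 loops in replicate 2. The next gene, Cbx5, which encodes the heterochromatin protein HP1 alpha, has its left end at 103191546 and had no end in an anchor. The posterior genes Hoxc10, Hoxc11, Hoxc12 and Hoxc13 were at no anchor and under no loop, with the nearest anchor 3.1, 18.3, 36.4 and 46.2 kb away. The same anchor, at Hoxc9, was the nearest to each of them, so these distances only restate their positions along the chromosome.

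Hoxd had loops on both sides, and all 4 were in replicate 2. Evx2 and Hoxd13, at the posterior end, shared the anchor chr2:74650001-74674999, which was joined over 375 kb to the left to chr2:74275001-74299999 (n = 37). That anchor held no protein-coding gene, only the long non-coding RNA genes Gm31731 and 4930441J16Rik, and Lnpk, a gene of an endoplasmic reticulum protein, was the only protein-coding gene between the anchors. Hoxd12 started 14 bases outside the Hoxd13 anchor and was not counted. Just inside the threshold, Hoxd9 ended 207 bases within the anchor chr2:74700001-74724999.

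That anchor, with ends of Hoxd9, Hoxd8, Hoxd3 and Hoxd4, had 2 loops to the right. One of 425 kb ended at chr2:75125001-75149999 (n = 34), at the long non-coding RNA genes Gm13652 and 2600014E21Rik. The other, of 875 kb, ended at chr2:75575001-75599999 (n = 31), inside the predicted gene Gm50595. A narrower anchor at Hoxd3, chr2:74710001-74719999, was joined over 250 kb to chr2:74960001-74969999, where no gene is annotated (n = 17). The 3 loops thus started within 25 kb of each other and ended 200, 372 and 822 kb past the right end of Hoxd1. Each passed over Hoxd1 and Mtx2, a mitochondrial import gene.

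Hoxd1 lay under all 3 of these loops and 38 kb from the nearest anchor. The genes between the left and right anchors, Hoxd10, Hoxd11 and Hoxd12, were at no anchor and under no loop. The far end of the 875 kb loop abutted the anchor chr2:75600001-75609999. From there replicate 2 listed loops of 180 and 240 kb to the right, and replicate 1 listed one of 70 kb to an anchor with an end of Nfe2l2, the gene of the oxidative stress factor NRF2. In replicate 1 this was the nearest anchor to every Hoxd gene: their distances ran from 835 kb at Hoxd1 to 928 kb at Hoxd13, with Evx2 at 938 kb.

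**Figure D2:**
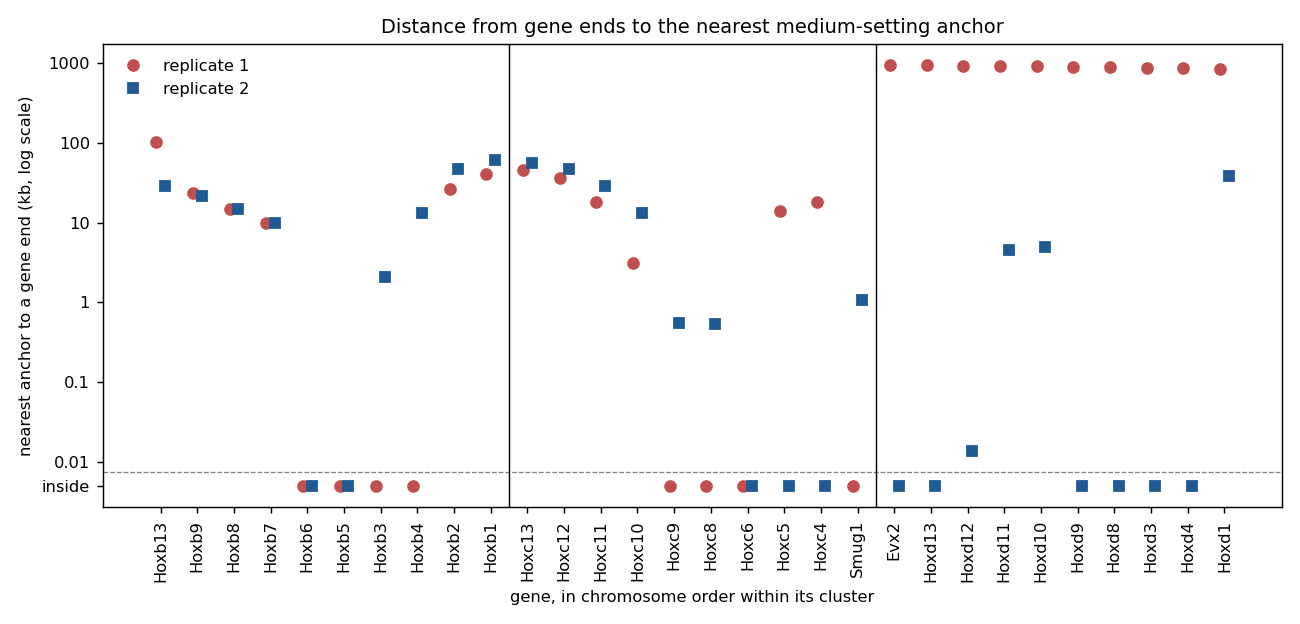
Distance in kb (log scale) from the nearer end of each listed gene to the nearest medium-setting anchor of replicate 1 (circles) and replicate 2 (squares), with genes inside an anchor on the bottom line and vertical lines between the clusters. All Hoxb and Hoxc genes lie within 103 kb of an anchor in either replicate, while all Hoxd genes lie 835 kb or more from an anchor of replicate 1.

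Grouped by paralogue number, a grouping made after the values were seen, the genes numbered 3 to 6 were at an anchor in 9 of 9 cases, beside 22.5% of all protein-coding genes. Of the 9, 5 were in replicate 1 (6.67% of all genes), 7 in replicate 2 (19.8%) and 6 under the high setting (9.52%). The other numbers were in 5 of 19 cases, a share of 26.3% near that of all genes: Hoxc8, Hoxd8, Hoxc9, Hoxd9 and Hoxd13. None of the 3 genes numbered 1 or 2 was at an anchor, and 1 of the 9 numbered 10 to 13 was. Genes with neighbouring numbers share anchors, so these are not separate observations. Of all 30 genes, 14 lay whole between the anchor midpoints of a loop (46.7%, against 30.6% of all protein-coding genes). Replicate 1 gave 7 of these (23.3%, against 7.51%) and replicate 2 all 14 (46.7%, against 30%). Those neither at an anchor nor under a loop numbered 10, and they were Hoxb7 to Hoxb9, Hoxc10 to Hoxc13 and Hoxd10 to Hoxd12. Each set was a run of neighbours at the centre or posterior end of its cluster. With 22.5% of all protein-coding genes at an anchor and 30.6% under a loop, genes with neither are common. Their exact share was not counted. Even if no gene were in both groups, these shares leave a larger part of all protein-coding genes with neither than the 10 of 30 members.

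**Figure D3:**
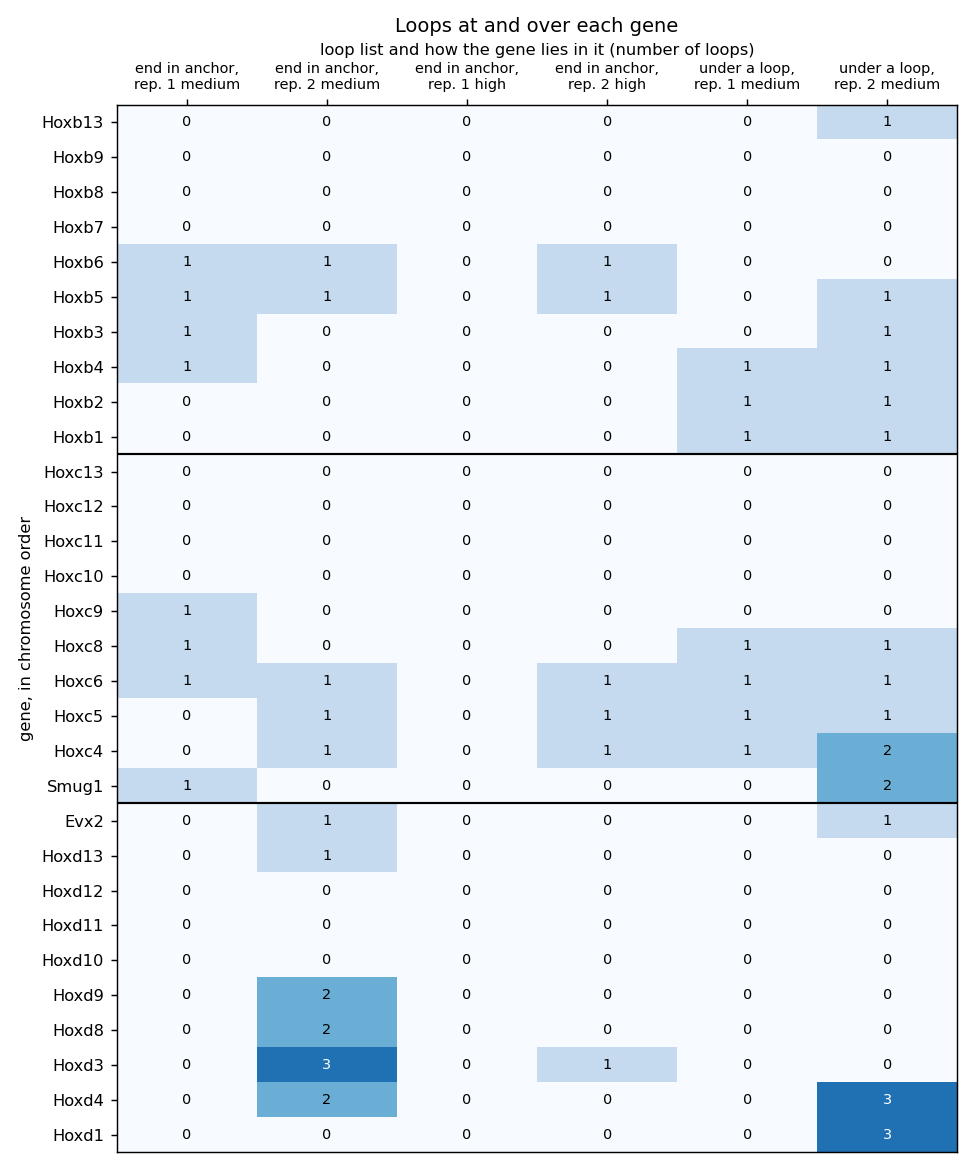
Number of loops with an anchor at each listed gene's end (first 4 columns, by replicate and setting) and of loops passing over the whole gene (last 2 columns), with genes in chromosome order. Most entries above 0 stand in runs of neighbouring genes, with single ones such as Hoxb13 and Smug1, Hoxd3 reaches 3 loops, and the column for replicate 1 under the high setting is 0 throughout.

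The promoters of 5 genes whose annotated starts lay in these anchors are printed as examples of starts inside an anchor. The anchors are 10 or 25 kb wide and some hold ends of several genes. A start inside one therefore does not show that the loop meets it. Hoxb4 stands for the Skap1 loop of replicate 1 and Smug1 for the Hoxc loop of replicate 1. Evx2 and Hoxd13 stand for the left Hoxd loop, and Hoxd3 for the 3 right ones. In replicate 2 the anchor of the Skap1 loop lay 13.3 kb from Hoxb4. Sequences are RefSeq's, GRCm38.p6, 250 bases before to 50 after the start, 5′ to 3′ as the table gives them. Capitals mark TATAAA on either strand, with overlapping matches run together.
Hoxb4 (chr11:96318017-96318316, plus strand): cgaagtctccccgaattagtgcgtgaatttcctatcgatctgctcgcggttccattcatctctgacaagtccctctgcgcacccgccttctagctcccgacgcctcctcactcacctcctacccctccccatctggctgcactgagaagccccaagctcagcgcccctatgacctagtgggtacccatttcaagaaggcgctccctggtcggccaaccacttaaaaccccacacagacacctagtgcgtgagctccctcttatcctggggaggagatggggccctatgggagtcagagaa
Smug1 (chr15:103163235-103163534, minus strand): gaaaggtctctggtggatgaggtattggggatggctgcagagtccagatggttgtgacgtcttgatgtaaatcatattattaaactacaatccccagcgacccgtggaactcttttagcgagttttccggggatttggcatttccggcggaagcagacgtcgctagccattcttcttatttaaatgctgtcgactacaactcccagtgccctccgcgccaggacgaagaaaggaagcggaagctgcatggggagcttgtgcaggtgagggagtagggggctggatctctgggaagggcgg
Evx2 (chr2:74659508-74659807, minus strand): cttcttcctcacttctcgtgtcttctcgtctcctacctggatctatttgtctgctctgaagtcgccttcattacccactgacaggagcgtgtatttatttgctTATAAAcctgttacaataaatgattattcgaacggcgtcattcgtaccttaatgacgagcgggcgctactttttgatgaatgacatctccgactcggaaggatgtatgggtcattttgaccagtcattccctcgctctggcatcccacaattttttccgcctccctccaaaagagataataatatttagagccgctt
Hoxd13 (chr2:74667975-74668274, plus strand): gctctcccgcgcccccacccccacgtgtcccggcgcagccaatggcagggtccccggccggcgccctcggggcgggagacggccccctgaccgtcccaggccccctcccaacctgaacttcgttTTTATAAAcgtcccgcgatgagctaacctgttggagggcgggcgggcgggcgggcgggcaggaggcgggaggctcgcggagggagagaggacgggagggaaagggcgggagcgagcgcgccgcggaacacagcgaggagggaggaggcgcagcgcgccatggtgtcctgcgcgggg
Hoxd3 (chr2:74711743-74712042, plus strand): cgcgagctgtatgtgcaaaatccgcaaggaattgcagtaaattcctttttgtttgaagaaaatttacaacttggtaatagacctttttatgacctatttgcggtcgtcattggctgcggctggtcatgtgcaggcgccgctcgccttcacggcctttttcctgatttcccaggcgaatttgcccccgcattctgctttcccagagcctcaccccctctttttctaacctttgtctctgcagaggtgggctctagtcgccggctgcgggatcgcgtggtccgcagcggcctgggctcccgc

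A promoter entry was found for 15 of the 30 genes (16 entries), and 7 of the 15 had an annotated start in an anchor (46.7%, against 14.9% of all genes with an entry). Besides the 5 printed these were Hoxd4 and Hoxd8. By cluster, 1 of the 7 was in Hoxb, 1 in Hoxc with Smug1 and 5 in Hoxd with Evx2, whose loops were in replicate 2 alone. Entries covered all the Hoxd genes and Evx2, but only Hoxb1, Hoxb4 and Hoxb8 in Hoxb, and Hoxc4 and Smug1 in Hoxc. The share thus rests mostly on Hoxd. Hoxd9 was at an anchor through its right end, with its start outside. Hoxc4, on the plus strand, had its left gene end in the anchor, while the start of its promoter entry, at 103034395, lay outside. The 7 promoters varied widely in composition, from 39.7% G and C with 4 CpG pairs at Hoxd4 to 74.3% with 37 at Hoxd13, with a median of 53%. The median was 60.3% for the 9 member entries outside anchors and 52.7% for all promoters. TATAAA, counted on both strands, was in 4 of the 16 entries (Evx2, Hoxd13, Hoxd4 and Hoxb8) and in 13.6% of all 32851. The PBX-HOX pattern TGATTNAT was in 1, at Hoxd11, against 3.22%. The ETS pattern CCGGAAGT was in 0, against 3.89%. These windows say nothing of the rest of each anchor.

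The clusters also hold microRNA genes, which silence target messages through the seed, bases 2 to 8. Their positions against the anchors were compared because Mir10a and Mir10b sit beside the paralogues Hoxb4 and Hoxd4. The mature forms are RefSeq's, with the seed in capitals.
mmu-miR-10a-5p (chr11:96317186-96317208): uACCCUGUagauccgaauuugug
mmu-miR-10b-5p (chr2:74726074-74726096): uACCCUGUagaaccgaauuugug
mmu-miR-196a-5p (chr11:96265187-96265208): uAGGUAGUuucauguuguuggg
mmu-miR-615-3p (chr15:103014969-103014990): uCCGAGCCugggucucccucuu

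The first 2 share the seed and differ by U12A, counted from the 5′ end of miR-10a. Mir10a lay inside the 25 kb Hoxb anchor of replicate 1. Mir10b lay 1.07 kb beyond the Hoxd anchor with Hoxd4 and was not counted. Mir615, within Hoxc5, was in the replicate 2 anchor with Hoxc4 to Hoxc6. The genes that give miR-196a, Mir196a-1 in Hoxb and Mir196a-2 in Hoxc, lay 15.2 and 1.57 kb outside. Of 11 non-coding entries listed, 10 were found and 4 were at an anchor (40%, against 16.7% of all annotated genes), the others being Hoxb5os and Hoxd3os1. These 4, of which 2 were in replicate 1 and 2 in replicate 2, lay in anchors already counted for Hox genes. Their share is therefore not a separate observation. Hotair, the long non-coding RNA gene between Hoxc11 and Hoxc12, was 27.1 kb away.

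The number n of these loops was near or below that of like loops. Set beside loops of the same list and anchor width with a span within 25%, n of the 2 replicate 1 loops was close to the median, at 30 against 29 in Hoxb and 33 against 31 in Hoxc. All 8 replicate 2 loops were under it. The largest gaps in proportion were at Hoxd, with 17 against 24 for the Hoxd3 loop of 250 kb, 34 against 46 for that of 425 kb and 37 against 48 for the Evx2 and Hoxd13 loop. The Hoxd3 loop was above 5.54% of its 415 like loops, and the replicate 2 Hoxb loop into Skap1 above 7.62% of 105. The 875 kb Hoxd loop had 31 against a median of 35.5 and was above 35.5% of 200. The replicate 2 loops also listed under the high setting were those into Skap1, both at Hoxc and the 250 kb one at Hoxd3. Since n is undefined and its error unknown, no test was run.

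**Figure D4:**
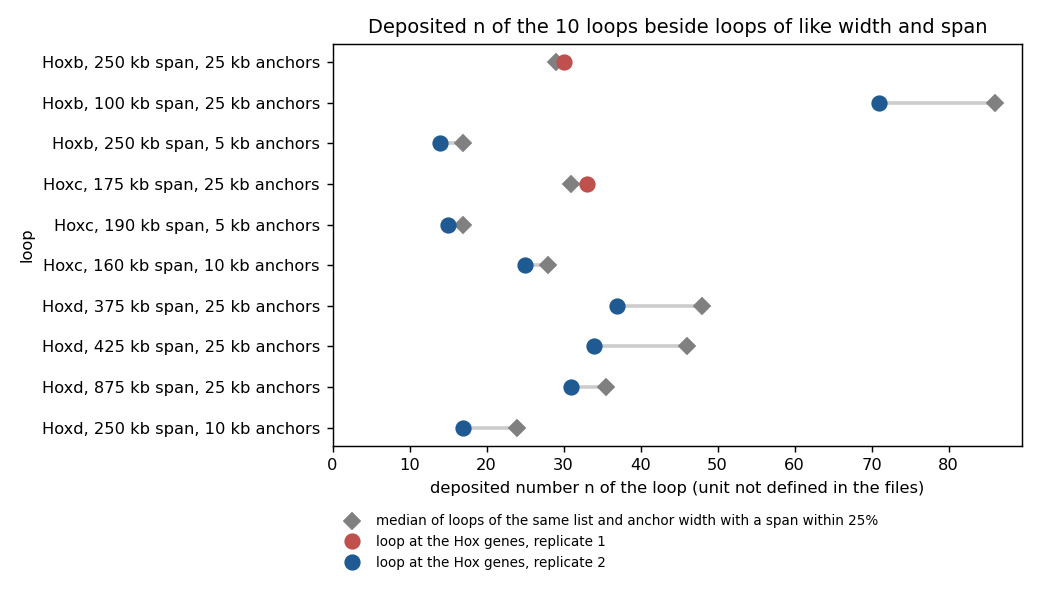
Deposited number n (no unit given in the files) of each of the 10 loops at the Hox genes (circles, coloured by replicate) and the median n of loops of the same list and anchor width with a span within 25% (diamonds). The replicate 1 circles sit just above their diamonds, at 30 and 33, and every replicate 2 circle sits below.

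No listed gene touched a deposited domain, while 3.98% of all protein-coding genes lay whole inside one and 5.51% overlapped one. The nearest was 401 kb from Hoxc, at chr15:102460001-102520000. The nearest to Hoxd was 1613 kb away and the nearest to Hoxb 9174 kb away, all in replicate 2. Replicate 1 listed no domain on chromosomes 11 and 15. In the Hoxa cluster 7 of 11 genes lay whole inside a domain. Within 500 kb of the cluster centre, replicate 1 listed 1 loop at Hoxb, 2 at Hoxc and 0 at Hoxd, against a median of 1 around all protein-coding genes. Replicate 2 listed 3, 8 and 4, against a median of 4.

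Neighbouring genes were checked from lists of 14 entries per cluster, which include Smug1 and Evx2. At an anchor were 1 of the 12 entries found near Hoxb (8.33%), 5 of 14 near Hoxc (35.7%) and 5 of 14 near Hoxd (35.7%), beside the 22.5% of all protein-coding genes. The Hoxb gene was Copz2, a coat protein gene. Near Hoxc they were Smug1, Gpr84, Zfp385a, Tarbp2 and Npff, and near Hoxd Evx2, Hnrnpa3, Nfe2l2, Chrna1 and Cir1. Apart from Smug1 and Evx2, none had an end in an anchor of a loop from the clusters. Skap1 itself had no end in an anchor, although the Hoxb loop ended inside it.

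Among genes that act with or upon Hox genes, the TALE homeodomain partners were at an anchor in 2 of 9 cases (22.2%, against 22.5%), Meis1 and Meis3. The Meis1 loop of 140 kb was in both replicates. Related homeobox genes were in 7 of 17 cases (41.2%): Evx2, Gbx1, Gbx2, Dlx1, Dlx2, Dlx3 and Dlx4. Dlx3 and Dlx4 lie on chromosome 11 to the left of Hoxb and shared a 100 kb loop of replicate 1, with a partner of 110 kb at Dlx3 in replicate 2. Dlx1 and Dlx2, to the left of Hoxd, shared a 100 kb loop of replicate 2 to an anchor at Hat1, a histone acetyltransferase gene. Gbx2 was joined into the body of Agap1 over 275 kb in replicate 1 and 290 kb in replicate 2. Chromatin regulators of Hox clusters were in 7 of 23 cases (30.4%), among them the H3K27 demethylase genes Kdm6a and Kdm6b and the Polycomb genes Eed, Jarid2 and Bmi1. Kmt2a, Ezh2, Suz12 and Ctcf were not. The lists are small, and their shares were not tested against the background.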

How the data were processed

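Hi-C loop and domain lists of 2 HPC5 samples were analysed. HiC-Pro 2.11.1 and the build mm10 are named in the submitters' processing notes; for the loop and domain callers, a name is not given in the sources used here. Each list belongs to 1 sample, and replicates were not pooled by the authors, per the deposited files. Anchors were used as deposited, counted from 1, and domains, counted from 0, were shifted to match. Genes were placed by RefSeq's table for assembly GRCm38.p6. Left out were 360 genes whose rows lie on scaffolds. The gene table has no strand, so both gene ends were placed, and starts came from the promoter table. Loops of the 2 replicates were matched where left midpoints and right midpoints each differed by at most 20 kb, and spans run from midpoint to midpoint. All analyses used Python 3.11.15 with pandas 2.3.3, and the counting was tested on simulated data. Shares carry counting error only.

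The members, gene lists and alternatives were chosen with earlier results of these data known. Named were all 30 members, protein-coding genes in partner anchors and listed genes at an anchor, of which some are not reported here. Other names (neighbours, genes under or beside a loop, listed genes at no anchor) were chosen after their values were seen. Alternatives were the high setting, gene ends within 5 or 10 kb, gene bodies, annotated starts, each replicate alone, shared loops, other matching distances and other background genes. No test between groups was possible with 1 group.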

Additional observations from a re-analysis of the deposited data

How the results depend on the processing

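The count of 16 genes at an anchor was 6 under the high setting and 8 on loops found in both replicates. On annotated starts it was 7 (of 15 genes with a promoter entry), 5 of them in Hoxd with Evx2. When either replicate was left out it was 8 to 11. It was 16 with gene bodies (30% of all protein-coding genes), 20 with ends within 5 kb (30.6%) and 21 within 10 kb (36.5%), so the background rose as well. By cluster, the high setting gave 2 in Hoxb, 3 in Hoxc and 1 in Hoxd. Leaving out a replicate gave 2 to 4 in Hoxb, 3 to 4 in Hoxc and 0 to 6 in Hoxd, where loops found in both replicates also gave 0. The 8 loops at gene ends became 3 under the high setting, and 2 without replicate 2 or 6 without replicate 1. Of the 8, 3 had a partner in the other replicate: the Hoxb loop, counted in each replicate, and the Hoxc loop of replicate 1. With midpoints within 10 kb or overlapping anchors 2 did, both the Hoxb loop, and within 40 kb 4 did, with the 160 kb Hoxc loop added. Under the high setting 0 did, as both replicate 1 loops at these genes lay on 25 kb anchors and were not listed there. The background of 22.5% was 16.7% over all annotated genes and 23.4% over genes with as many neighbours within 500 kb as the members. The counts of 0 loops spanning a cluster and 0 members in a domain were 0 in every alternative run. The high-setting lists lack all loops on 25 kb anchors, so genes and loops on those anchors alone drop out there. Apart from this and the shorter lists, the cause of these differences was not tested. The depth is unknown, so a loop absent from replicate 1 is only unlisted there. No paired analysis was possible because the samples form 1 group.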
